A study of Mus musculus with 6 samples.

Results

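The Cyp2c cytochrome P450 genes were followed in mouse liver by every probe set whose annotation names exactly 1 gene, that of a Cyp2c family member. A probe set is the group of short oligonucleotides that measures a transcript on an Affymetrix array. The rule found 11 probe sets of 11 genes among 45037 probe sets: Cyp2c23 (also called Cyp2c44), Cyp2c29, Cyp2c37, Cyp2c38, Cyp2c39, Cyp2c50, Cyp2c54, Cyp2c55, Cyp2c65, Cyp2c68 and Cyp2c70. Of the 10 family members listed at the outset, 9 had such a probe set. Cyp2c40 had none and was not analysed here. Cyp2c65 and Cyp2c68 were added by the rule. The probe sets of Cyp2c23 and Cyp2c65 end in s_at and are marked as shared, meaning that they can detect related transcripts.

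The livers came from males 3 weeks old, 3 controls (Srf loxP/+ AlfpCre) and 3 mutants (Srf loxP/loxP AlfpCre), and each mouse was measured on its own array. SRF, serum response factor, is a transcription factor of actin cytoskeleton and immediate early genes. All the mice carried AlfpCre, a transgene that expresses Cre recombinase under albumin and alpha-fetoprotein control sequences, so 1 Srf copy was targeted in the controls too. The comparison asks which transcripts differ when both copies are targeted, and the series' design text states that the mutant tissue had no Srf. In bulk liver RNA, fewer cells of a type and less RNA per cell cannot be told apart.

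Cytochrome P450 enzymes are heme proteins of the endoplasmic reticulum that insert oxygen into lipophilic substrates, with electrons from P450 reductase and cytochrome b5. The Cyp2c family is among the most expanded P450 families of the mouse. In liver its enzymes oxidise drugs and steroids and convert arachidonic acid to epoxides and hydroxylated products, and several of its genes are induced through the nuclear receptors CAR and PXR. Cyp2c70 stands apart in function, since it makes the muricholic acids that are typical of mouse bile. The RefSeq table places 19 Cyp2c genes and pseudogenes on chromosome 19, 15 of them protein coding, and all 11 measured genes are among these. Cyp2c37, Cyp2c54 and Cyp2c50 are neighbours in that order, as are Cyp2c29 and Cyp2c39, with Cyp2c38 close by.

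The promoter windows of 5 genes are shown because close relatives within the family had unlike values on these arrays. They come from RefSeq (GRCm38.p6) and hold the 250 bases before the annotated start, read 5′ to 3′ on the gene's strand. The table gave 2 windows for Cyp2c39, and 10 windows for 9 of the 11 genes; Cyp2c23 and Cyp2c54 were not among them. Capitals mark the longest run of bases shared by all windows of a group, 12 bases in the 4 windows of Cyp2c29, Cyp2c38 and Cyp2c39 and 44 bases in the windows of Cyp2c37 and Cyp2c50.
Cyp2c29, chr19:39286835-39287084 (+ strand): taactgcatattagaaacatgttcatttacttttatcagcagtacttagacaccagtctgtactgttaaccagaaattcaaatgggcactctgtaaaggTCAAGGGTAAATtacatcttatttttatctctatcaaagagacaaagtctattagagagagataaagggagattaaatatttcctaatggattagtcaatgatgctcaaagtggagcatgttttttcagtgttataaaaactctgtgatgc
Cyp2c38, chr19:39463076-39463325 (- strand): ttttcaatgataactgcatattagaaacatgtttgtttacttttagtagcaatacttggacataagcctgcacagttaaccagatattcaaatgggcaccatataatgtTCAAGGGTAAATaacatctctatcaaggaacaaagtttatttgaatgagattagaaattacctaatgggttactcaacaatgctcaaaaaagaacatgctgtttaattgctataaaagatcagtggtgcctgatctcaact
Cyp2c39, chr19:39347096-39347345 (+ strand): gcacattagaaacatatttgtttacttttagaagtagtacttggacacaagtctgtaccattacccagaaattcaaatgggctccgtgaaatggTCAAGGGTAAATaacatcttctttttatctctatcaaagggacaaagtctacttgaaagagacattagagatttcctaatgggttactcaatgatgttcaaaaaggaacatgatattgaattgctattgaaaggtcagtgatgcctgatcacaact
Cyp2c39, chr19:39510572-39510821 (+ strand): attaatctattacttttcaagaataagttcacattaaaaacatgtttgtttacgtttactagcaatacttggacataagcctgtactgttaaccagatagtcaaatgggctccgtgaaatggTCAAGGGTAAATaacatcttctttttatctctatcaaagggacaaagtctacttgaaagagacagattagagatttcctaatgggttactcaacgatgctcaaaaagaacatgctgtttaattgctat
Cyp2c37, chr19:39992174-39992423 (+ strand): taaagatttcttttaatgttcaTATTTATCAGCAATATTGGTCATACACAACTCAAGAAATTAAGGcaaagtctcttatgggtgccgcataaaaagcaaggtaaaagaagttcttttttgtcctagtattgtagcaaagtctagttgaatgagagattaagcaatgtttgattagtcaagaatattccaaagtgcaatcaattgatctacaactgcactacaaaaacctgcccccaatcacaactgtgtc
Cyp2c50, chr19:40089429-40089678 (+ strand): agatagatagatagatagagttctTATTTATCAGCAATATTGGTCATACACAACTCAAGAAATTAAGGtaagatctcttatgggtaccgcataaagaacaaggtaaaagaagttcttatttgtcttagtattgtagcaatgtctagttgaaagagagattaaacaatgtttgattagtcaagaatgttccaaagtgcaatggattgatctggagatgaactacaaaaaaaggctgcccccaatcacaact

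Aligned end to end, the Cyp2c38 window was 89.6% and 85.5% identical over its aligned bases to the windows of Cyp2c39, and the Cyp2c29 window was 82.0% identical to that of Cyp2c38. The windows of Cyp2c37 and Cyp2c50 were 87.8% identical. The CArG box, the sequence that SRF binds, was found in 0 of the 10 windows and in 1.47% of all 32851 promoter windows of that length. A repeat bound by the nuclear receptor HNF4A was searched on both strands in an exact form, AGGTCA followed after any 1 base by AGGTCA. This form was in 0 of the 10 and in 0.0335% of all windows. A form so rare could hardly be met in 10 windows, and other forms were not searched. The 0 therefore does not show that these windows lack an HNF4A site. The single element AGGTCA was in 3 of the 10 (Cyp2c29, Cyp2c70 and the window of Cyp2c39 that starts at 39347096) and in 14.0% of all windows. These matches describe letters in a short window and no binding.

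Srf itself was measured by a pair of probe sets. The brighter one, 1418256_at, had a log2 signal of 5.31, 5.14 and 5.11 for the controls, and of 4.17, 5.24 and 2.54 for the mutants, numbered 1 to 3 as in the labels (adjusted p = 0.398, limma). The array labelled mutant 2 was thus not below the controls by this probe set. The dimmer one, 1418255_s_at (shared), gave 3.00, 3.69 and 3.37 for the controls and 3.29, 0 and 1.99 for the mutants (adjusted p = 0.411, limma), where 0 is the floor. By that probe set mutant 1 lay in the control range and mutant 2 was the lowest, and its mutant mean lay below the background estimate. Whether either probe set covers the deleted part is unknown here, so they cannot check the labels. The ratio of 3' to 5' signal of Actb, a sign of RNA integrity, lay between 1.68 and 2.36 in controls, while mutants 1 to 3 had 5.33, 2.36 and 2.92 (two-sided exact permutation p = 0.2). The same ratio was 0.679 to 0.755 in controls and 1.01, 0.773 and 0.866 in mutants for Gapdh (exact permutation p = 0.1, the lowest possible), and 4.44 to 7.03 in controls and 17.3, 6.39 and 10.5 in mutants for Pcx (exact permutation p = 0.2). Mutant 1 was the highest for all 3 genes and mutant 3 was above every control for all 3. Their mean log2 value per array, used as a covariate in an alternative fit, was 0.781 to 1.22 in controls and 2.18, 1.18 and 1.57 in mutants 1 to 3, so only mutant 2 overlapped the controls. Hepatocyte markers were bright on every array, with a summed linear signal of 42612 to 47975 over 8 genes in controls and 51051 to 66523 in mutants. These sums depend on the scaling, which multiplied mutants 1 to 3 by 1.448, 0.9285 and 1.27 and controls by 0.7722 to 0.9768. They were not computed on the deposited scaling, so the gap between the groups is not read as a difference. Values without each of these arrays are given below where they bear on a call.

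Of the 11 Cyp2c probe sets, 10 passed the filter on dim probe sets and entered the test. In mutant liver Cyp2c54 and Cyp2c23 fell, and no member rose past the threshold of 0.05 on the adjusted p (limma). Over all 27022 probe sets tested, 0.0592% were lower and 0.0148% higher by that rule. At an unadjusted p under 0.05 there were 5 members lower and 3 higher, where the shares of all probe sets were 6.18% and 7.6%. The 3 mutant arrays lay below all 3 controls for 5 members (9.36% of all probe sets tested) and above them for 4 members (13.8%). On the deposited scaling these were 5 members, against 17.9% of all, and 2 members, against 3.62%. After quantile normalization they were 5 members, against 10.7%, and 2 members, against 11.4%. The values of all members are shown in the plot of signals by array.

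**Figure D1:**
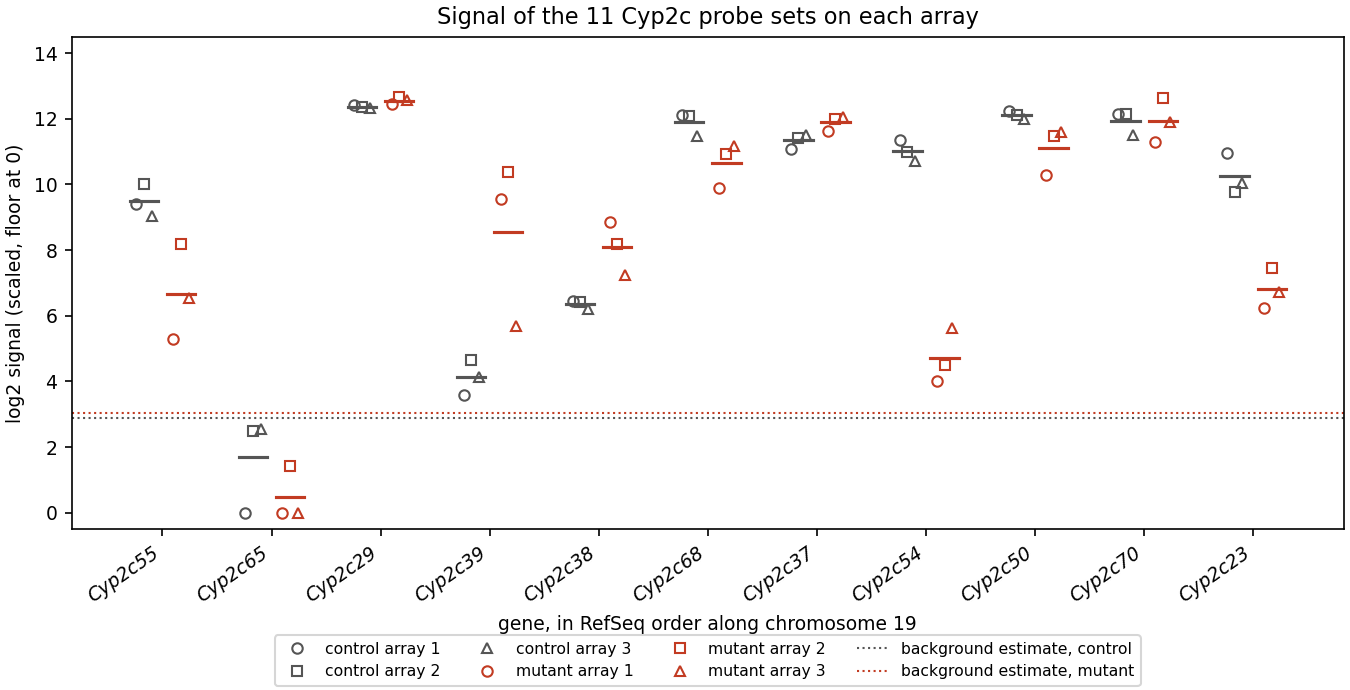
Log2 signal (y axis) of the 11 Cyp2c probe sets in RefSeq gene order (x axis), with a symbol for each array, controls in grey and mutants in red; short lines are group means and dotted lines the background estimates of 2.87 and 3.04. Cyp2c54 fell from 11.02 to 4.72 on average, Cyp2c39 was higher on each mutant array, and Cyp2c65 lay below background on all 6 arrays.

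Cyp2c54 (1455457_at) encodes an enzyme that makes epoxides of arachidonic acid. Its log2 signal was 11.35, 10.99 and 10.71 in controls 1 to 3 and 4.01, 4.51 and 5.64 in mutants 1 to 3. The groups were far apart, and every mutant array, mutant 2 included, was more than 5 log2 units below the lowest control. The log2 difference was -6.29 (SE 0.42, 95% interval -7.25 to -5.33, adjusted p = 0.00333, limma), which is 78.4-fold lower in the mutants (95% interval 40.3 to 153). Only 2 of the 27022 probe sets had a smaller p. Its mutant mean of 4.72 still lay above the background estimate of 3.04, so the fold is not a bound. The size of the fall depends on how low signals are treated. With log2(signal + 32) the difference was -5.13 (adjusted p = 0.000249, limma), outside the interval of -7.25 to -5.33. Without mutant 1 the difference was -5.94 (adjusted p = 0.000712) and without mutant 2 it was -6.19 (adjusted p = 0.00312). It no longer passed without control 2 (-6.30, adjusted p = 0.0588, limma) and when dim probe sets were kept in the test (adjusted p = 0.0708, limma). In those fits 2 and 0 of all probe sets tested passed. Over all 15 alternatives the adjusted p of Cyp2c54 ran from 0.000249 to 0.0708 (limma).

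Cyp2c50 (1418653_at) and Cyp2c37 (1419094_at), the genes on either side of Cyp2c54, also act on arachidonic acid. Cyp2c50 gave 12.24, 12.13 and 11.99 in controls and 10.29, 11.47 and 11.59 in mutants, a log2 difference of -1.01 (SE 0.35, adjusted p = 0.326, limma). All the mutants were lower, mutant 1 the most. The difference was -0.59 without mutant 1 (adjusted p = 0.148) and -0.25 with the 3' over 5' ratio as a covariate (adjusted p = 0.942), the highest of the 15 alternatives. Cyp2c37 gave 11.07, 11.43 and 11.52 in controls and 11.62, 11.99 and 12.06 in mutants, a log2 difference of 0.55 (SE 0.23, adjusted p = 0.355, limma). The mutants were slightly above the controls, a separation that was lost on the deposited scaling, where the difference was 0.10. Within each array, Cyp2c54 minus Cyp2c37 shifted by -7.28, -7.16 and -6.10 in mutants 1 to 3 from the control mean, where the controls had an SD of 0.55. Cyp2c54 minus Cyp2c50 shifted by -5.17, -5.85 and -4.84, and Cyp2c50 minus Cyp2c37 by -2.11, -1.31 and -1.26. These pairs were chosen after their values were seen, so the shifts are a description with no test. The windows of Cyp2c37 and Cyp2c50 printed above share 44 bases in a row.

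Cyp2c23 (1424576_s_at, shared) encodes an epoxygenase of arachidonic acid and lies last in the gene order. It gave 10.95, 9.77 and 10.04 in controls and 6.24, 7.46 and 6.71 in mutants. The groups did not overlap, with mutant 2 the nearest to the controls. The log2 difference was -3.45 (SE 0.40, 95% interval -4.38 to -2.52, adjusted p = 0.0418, limma), 10.9-fold lower in the mutants (95% interval 5.72 to 20.9). Without mutant 1 it was -3.17 (adjusted p = 0.0147) and without mutant 2 it was -3.78 (adjusted p = 0.00907). It no longer passed without control 1, 2 or 3 (adjusted p = 0.26, 0.221 and 0.158), without mutant 3 (adjusted p = 0.194) and with the 3' over 5' ratio as a covariate (-2.79, adjusted p = 0.283, limma). It passed in 6 of 15 alternatives, with adjusted p from 0.00907 to 0.283.

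Cyp2c55 (1419582_at) hydroxylates arachidonic acid and is also found in the intestine. It gave 9.40, 10.01 and 9.05 in controls and 5.29, 8.19 and 6.53 in mutants, with no overlap. Its log2 difference of -2.82 (SE 0.66) did not pass (adjusted p = 0.221, limma). The difference passed without mutant 2 (-3.58, adjusted p = 0.0159, limma), where 579 of all probe sets tested passed, against 20 in the main fit. It was -1.0 with the 3' over 5' ratio as a covariate (adjusted p = 0.929, limma). These were the lowest and highest of the 15 alternatives. Over the mutant arrays its signal was lowest in mutant 1, which had the highest 3' to 5' ratio, and highest in mutant 2, which had the lowest; the part of this in the difference was not tested beyond the covariate. Of the intestinal epithelium markers, Vil1, Cdx1, Cdx2 and Muc2 lay below the background estimate in both groups, and the summed signal of all 6 markers was 475 to 784 in controls and 254 to 316 in mutants. The markers above background went opposite ways: Fabp2 had -2.44 (adjusted p = 0.327, limma) with every mutant below the controls, and Lgals4 had 2.53 (adjusted p = 0.287, limma) with every mutant above them.

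Cyp2c68 (1423244_at) sits among several near relatives in the gene order, including Cyp2c67 and Cyp2c40, which had no probe set of their own here. Its signals were 12.13, 12.09 and 11.47 in controls and 9.88, 10.94 and 11.17 in mutants. Mutant 3 came within a small distance of control 3, and mutant 1 was the lowest. The log2 difference was -1.23 (SE 0.37, adjusted p = 0.296, limma), and -0.41 with the 3' over 5' ratio as a covariate (adjusted p = 0.929). Its adjusted p was between 0.114 and 0.929 over the 15 alternatives.

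Cyp2c39 (1421363_at), whose enzyme hydroxylates retinoic acid, had the highest positive difference of the family. It gave 3.60, 4.64 and 4.12 in controls and 9.55, 10.39 and 5.70 in mutants. All mutants lay above all controls, but mutants 1 and 2 were several log2 units above mutant 3. The log2 difference was 4.42 (SE 1.07, 95% interval 1.96 to 6.88), 21.5-fold with an interval of 3.90 to 118, and it did not pass (adjusted p = 0.24, limma). Mutant 3 decided this call, since without it the difference was 5.85 (adjusted p = 0.0225, limma). Without mutant 1 it was 3.92 (adjusted p = 0.202) and without mutant 2 it was 3.50 (adjusted p = 0.108), within a range of adjusted p from 0.0225 to 0.929 over the 15 alternatives.

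Cyp2c38 (1452501_at), an epoxygenase close to Cyp2c39 in sequence and position, gave 6.46, 6.43 and 6.21 in controls and 8.87, 8.19 and 7.24 in mutants. The mutants were again all higher, with mutant 3 the closest to the controls. The log2 difference was 1.74 (SE 0.40, adjusted p = 0.212, limma), 3.33-fold with a 95% interval of 1.76 to 6.29. Cyp2c29 (1417651_at), a main hepatic member that makes arachidonic acid epoxides, gave 12.41, 12.35 and 12.33 in controls and 12.45, 12.66 and 12.56 in mutants. Its log2 difference was 0.20 (SE 0.18, 95% interval -0.23 to 0.62, adjusted p = 0.609, limma), and it turned to -0.26 on the deposited scaling and -0.21 after quantile normalization. Within each array, Cyp2c39 minus Cyp2c29 shifted by 5.34, 5.96 and 1.38 in mutants 1 to 3 (control SD 0.55), and Cyp2c38 minus Cyp2c29 by 2.42, 1.52 and 0.68 (control SD 0.11), again for pairs chosen after their values were seen and without a test. The promoter windows of these 3 genes are among those printed above.

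Cyp2c70 (1424273_at), the muricholic acid enzyme, gave 12.16, 12.14 and 11.52 in controls and 11.30, 12.64 and 11.90 in mutants. The groups overlapped, and mutants 1 and 2 lay on opposite sides of the controls. The log2 difference was 0.00 (SE 0.36, 95% interval -0.83 to 0.83, adjusted p = 0.998, limma), an interval that leaves room for 1.78-fold in either direction in this fit. With the 3' over 5' ratio as a covariate the difference was 0.92 (adjusted p = 0.692), outside that interval. Cyp2c65 (1429994_s_at, shared), a gene of the digestive tract, had 0, 2.50 and 2.56 in controls, and in mutants 0, 1.41 and 0, where 0 is the floor. Both group means lay below background, it was not tested, and no fold is given.

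**Figure D2:**
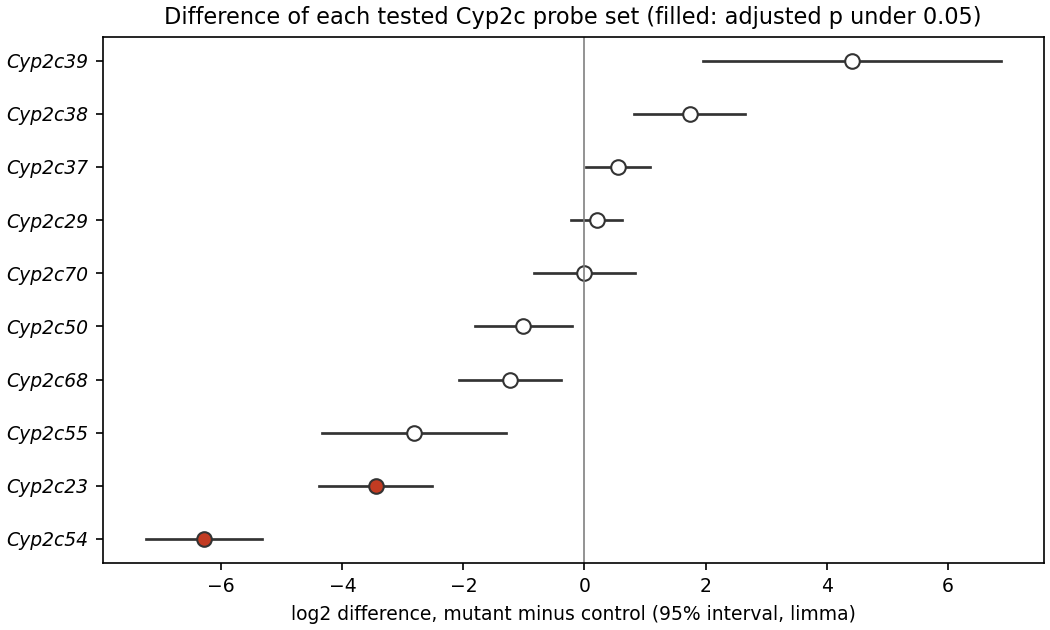
Log2 difference of mutant minus control (x axis) for the 10 tested Cyp2c probe sets (y axis), points with 95% intervals from limma, filled in red where the adjusted p was under 0.05. The differences ran from -6.29 (Cyp2c54) to 4.42 (Cyp2c39), and the interval of Cyp2c39 was the widest of the 10.

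The members were also compared with each other within arrays. For each of the 10 members above background, the within-array difference to the mean of the other 9 was compared between groups. With 3 arrays a group the two-sided exact permutation p cannot go below 0.1, so no member could pass. Each shift also carries that of the other 9, Cyp2c54 among them, so a member with no difference of its own, such as Cyp2c70, shifts too. Cyp2c54 shifted by -6.11 against the others, Cyp2c23 by -2.96 and Cyp2c55 by -2.25. Cyp2c39 shifted by 5.79, Cyp2c38 by 2.81, Cyp2c37 by 1.49, Cyp2c29 by 1.09 and Cyp2c70 by 0.88 (exact permutation p = 0.1 for each of these 8; 0.125 after Benjamini-Hochberg adjustment over the 10). Cyp2c50 shifted by -0.24 and Cyp2c68 by -0.49 (exact permutation p = 0.6 and 0.4). The share of all probe sets separated by such a within-array measure was not computed.

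**Figure D3:**
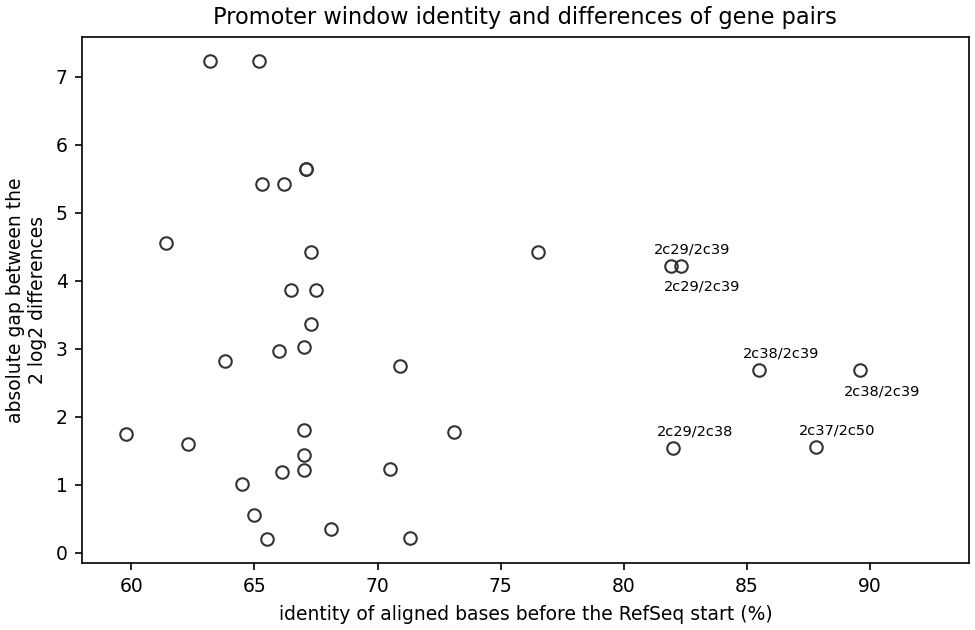
Identity of the aligned bases of 2 promoter windows (x axis, %) and the absolute gap between the 2 genes' log2 differences of mutant minus control (y axis). Each of the 35 points is a pair of windows from 2 different tested genes, so Cyp2c65 is left out. The pairs of highest identity are named. The pair of Cyp2c37 and Cyp2c50 at 87.8% identity had differences 1.56 apart, and Cyp2c29 and Cyp2c39 had differences 4.22 apart; pairs share windows and are not independent.

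Against other P450 families of drug metabolism, the Cyp2c differences covered the widest range of the 4 groups. The median log2 difference over the 11 Cyp2c probe sets was -1.01, from -6.29 to 4.42. The 11 include Cyp2c65, which was not tested and lay below background in both groups. Without Cyp2c65 the median would lie between the values of Cyp2c50 (-1.01) and Cyp2c70 (0.00). Over all probe sets tested the median was 0.08, with quartiles at -0.40 and 0.54. It was -0.14 over 7 probe sets of Cyp2a and Cyp2b genes (range -0.74 to 0.80). For 18 of Cyp2d, Cyp2f and Cyp2j genes it was -0.16 (-4.53 to 1.62), and for 5 of Cyp3a genes 0.35 (-0.06 to 2.12). No tested probe set of those families passed the adjusted threshold (limma). At an unadjusted p under 0.05 (limma), 1 of 6, 5 of 17 and 0 of 4 tested were lower, against 6.18% of all probe sets tested. At the same level 0, 0 and 1 were higher, against 7.6%. The Cyp2c median was -0.11 with log2(signal + 32), -0.25 with the 3' over 5' ratio as a covariate and -1.36 on the deposited scaling, where the median of all probe sets tested was -0.37. The difference between families was not tested.

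**Figure D4:**
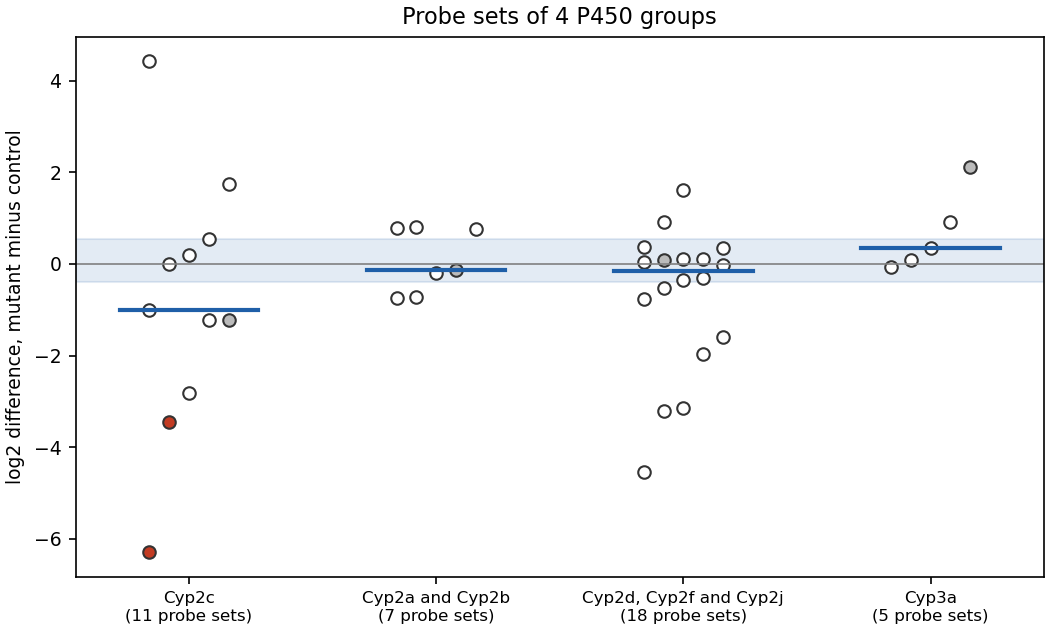
Log2 difference of mutant minus control (y axis) for each probe set of 4 P450 groups (x axis), filled in red where the adjusted p was under 0.05 and in grey where the probe set was too dim to be tested; blue lines are medians and the shaded band holds the middle quartiles of all probe sets tested. The Cyp2c probe sets reach from -6.29 to 4.42, and only 2 Cyp2c probe sets are red.

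The partners and regulators of these enzymes were followed by lists. Of 14 genes of electron transfer to P450 and of heme synthesis, 12 were tested and 0 passed (limma), with a median log2 difference of -0.65. At an unadjusted p under 0.05, 5 were lower and 1 higher (limma). Over all probe sets tested, 6.18% were lower and 7.6% higher at that level. These shares stand beside every list below, the cell type markers included. Alad, an enzyme of heme synthesis, had -1.96 (SE 0.65, adjusted p = 0.315), the mitochondrial cytochrome b5 Cyb5b -1.30 (adjusted p = 0.321) and the cytochrome b5 reductase Cyb5r3 (shared) -1.11 (adjusted p = 0.336). For each of the 3 the mutants lay below the controls, as they did for 9.36% of all probe sets tested. The median deviation of this list on mutant arrays 1 to 3 was -1.29, -0.28 and -0.33, so mutant 1 was the lowest.

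Of 22 regulators of Cyp2c genes, 21 were tested and 0 passed (limma), with 1 lower and 0 higher at an unadjusted p under 0.05 and a median of -0.08. The smallest adjusted p belonged to Nr0b2, which encodes the repressor SHP, at -3.69 (SE 1.52, adjusted p = 0.355) with overlapping groups. Cebpb, a liver transcription factor, had 0.57 (adjusted p = 0.408) and the coactivator Ppargc1a 0.94 (adjusted p = 0.417). The receptors CAR and PXR were chosen after their values were seen. Nr1i3, which encodes CAR, gave 7.66, 7.66 and 7.89 in controls, and its mutant values were 6.60, 7.76 and 7.83 (limma, adjusted p = 0.642). Nr1i2, which encodes PXR, gave 6.61, 6.77 and 6.93 in controls, and its mutant values were 4.63, 6.64 and 6.83 (limma, adjusted p = 0.52). Both genes were lowest on mutant 1, and the groups overlapped. The part of these receptors in the Cyp2c differences was not tested.

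Of 16 genes of fatty acid epoxides and eicosanoids, the products of these enzymes, 14 were tested and 0 passed (limma; 3 lower and 0 higher at an unadjusted p under 0.05, median -0.11). Cyp4f14, a fatty acid hydroxylase, had -3.01 (SE 0.62, adjusted p = 0.167), the epoxygenase Cyp2j5 -3.15 (adjusted p = 0.315) and the leukotriene hydrolase Lta4h -0.63 (adjusted p = 0.344). Of 14 genes of the bile acid pathway around Cyp2c70, all 14 were tested and 0 passed (limma; 4 lower and 1 higher at an unadjusted p under 0.05, median -0.79). The hydroxylase Cyp7b1 had -2.05 (SE 0.60, adjusted p = 0.294), the dehydrogenase Hsd3b7 -1.34 (adjusted p = 0.332) and the sterol hydroxylase Cyp27a1 0.67 (adjusted p = 0.334). The median deviation of that list was -2.12, -0.01 and -0.31 on mutants 1 to 3, so mutant 1 stood apart here too.

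Many Cyp2c transcripts are richer in hepatocytes around the central vein, so markers of both ends of the lobule were read beside them. Of 10 pericentral markers 0 passed (limma; 0 lower and 2 higher at an unadjusted p under 0.05, median -0.10). Their summed signal was 14608 to 17321 in controls and 14228 to 21488 in mutants, overlapping. Of 8 periportal markers tested 0 passed (limma; 1 lower and 2 higher at an unadjusted p under 0.05, median 0.25). Cyp2f2, a P450 of the periportal zone, had -4.53 (SE 0.69, adjusted p = 0.0757, limma). Most of the list went the other way, with 6 of the 8 positive. Ass1 had 1.41 (adjusted p = 0.167, limma), with every mutant above the controls, by a probe set with a control mean of only 4.71. Another probe set, annotated to both Gm5424 and Ass1, had a smaller difference of 0.55 (adjusted p = 0.34, limma). Markers of stellate cells had a summed signal of 2473 to 2820 in controls and 804, 2670 and 1423 in mutants 1 to 3, with 6 of 7 negative and none passing (limma; 3 lower at an unadjusted p under 0.05). Of the tested markers of Kupffer cells (7), endothelium (6), cholangiocytes (4) and lymphocytes (4), 0 passed and 0 had an unadjusted p under 0.05 (limma). Of 2 erythroid markers tested 0 passed (limma; 1 lower at an unadjusted p under 0.05), Alas2 had -2.97 (adjusted p = 0.352), and the summed erythroid signal was 254 to 492 in controls and 20, 366 and 47 in mutants 1 to 3. Of 3 pancreas acinar markers tested 0 passed (limma; 1 lower and 1 higher at an unadjusted p under 0.05), with Cela1 at -1.96 and Cela2a at 1.98, and the summed signal was 299 to 510 in controls and 140 to 222 in mutants. The summed Kupffer signal was 1302 to 1880 in controls and 812 to 1465 in mutants. The part of these cell types in the Cyp2c differences was not tested.

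The genes outside the family with the most similar values were found by the root mean square difference of the 6 log2 deviations from the control mean, among 13134 genes. For Cyp2c23 these were the mitotic regulator Cdc20 (shared) at 0.26, the mitotic kinesin Kif20a at 0.41 and the nudix hydrolase Nudt7 at 0.43. Cdc20 gave 7.34, 6.80 and 6.40 in controls and 3.01, 3.78 and 3.20 in mutants. For Cyp2c54 the nearest were farther away, Mup10, a major urinary protein gene, at 0.81, Keg1 at 1.10 and squalene epoxidase, Sqle, at 1.14. Mup10 had 8.50, 6.92 and 5.33 in controls, and in mutants 0, 0 and 2.29, below the background estimate of 3.04. Kif20a was also below it in mutants, at 0, 2.09 and 0. For both genes the size of the fall is a bound and the distance depends on the floor of 0, so their ranks are uncertain. These genes were picked for their values, and the likeness is a description without a test.

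**Figure D5:**
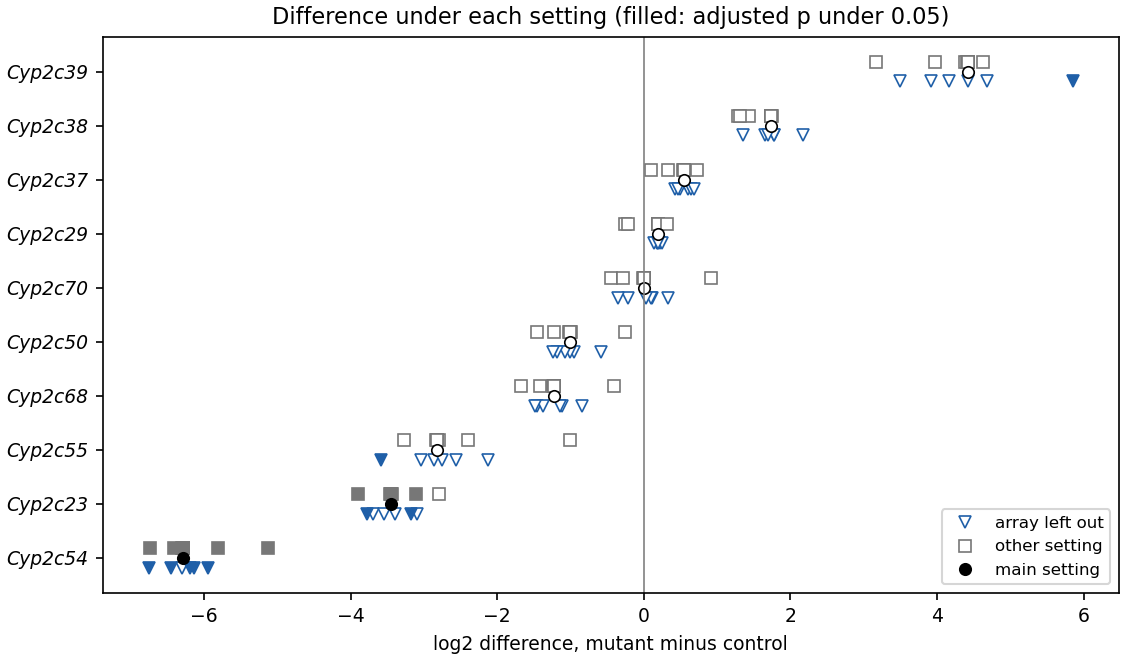
Log2 difference of mutant minus control (x axis) of each tested Cyp2c probe set (y axis) under the main setting (circles), with 1 array left out (triangles) and under the other settings (squares), filled where the adjusted p was under 0.05. Cyp2c54 stayed between -6.75 and -5.13 and passed in 13 of 15 alternatives, Cyp2c23 passed in 6 of 15, and Cyp2c29 and Cyp2c70 lay on both sides of 0.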

How the data were processed

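Biotin-labelled RNA was hybridised to Affymetrix arrays, per the labels. The authors deposited linear intensity values, made with GCOS, per the submitters' processing notes; the sources used here name no algorithm, scaling or genome build. Samples were grouped by title. Symbols were updated through Entrez identifiers for 34741 of 34945 probe sets with 1 symbol. Trimmed mean intensities (2% off each end) were 55.2 to 69.9 in controls and 37.3 to 58.1 in mutants, so arrays were scaled to a common trimmed mean. After a floor of 1, values were put on the log2 scale, and the dimmest 40% of probe sets were not tested. Mutant and control were compared by lmFit and eBayes with a variance trend (limma 3.58.1, R 4.3.3), Benjamini-Hochberg adjusted over 27022 probe sets. Where nothing else is stated, adjusted p-values are from this fit. The background estimate was the 95th percentile of 83 olfactory, vomeronasal and taste receptor probe sets. The fit was also run on simulated data with independent noise of the same spread in both groups. Some members had unequal spread, such as Cyp2c39 with an SD of 0.52 in controls and 2.5 in mutants. The simulated run therefore cannot show how the fit behaves on such probe sets. Promoters were aligned with Biopython 1.88. Members, lists and tests were chosen with earlier results of these data known; promoter groups and within-array pairs were chosen after their values were seen. All members are named, with the 3 genes of smallest adjusted p per pathway list and the 3 most alike genes per called member. Alternatives covered scaling, filter, floor, variance trend, replicate block, RNA ratio covariate and each array left out. The number of arrays, 3 per group, limits the precision.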

Additional observations from a re-analysis of the deposited data

How the results depend on the processing

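The count of Cyp2c probe sets past the threshold was 2, where 20 of all 27022 probe sets tested passed. The count was 2 on the deposited scaling, after quantile normalization, with arrays centred on their median and with log2(signal + 32). In these fits 35, 22, 32 and 107 of all probe sets tested passed. The count was 1, Cyp2c54, with the lower 60% of probe sets left out, without the variance trend and with the 3' over 5' ratio as a covariate. There 11, 9 and 5 of all probe sets tested passed. The count was 0 with no filter on dim probe sets (limma, with 7 members at an unadjusted p under 0.05). In that fit 45037 probe sets were tested and 0 of them passed. With 1 array left out the count ranged from 0 to 3. Without control 2 it was 0 (limma, with 6 at an unadjusted p under 0.05), where 2 of all probe sets tested passed. Without mutant 2 it was 3 (Cyp2c23, Cyp2c54 and Cyp2c55), where 579 of all probe sets tested passed. Same-numbered arrays did not deviate together (r = -0.037, 0.018 and 0.041), and not every array correlated best with its own number. The values thus show no pairing of mice by number, but 3 arrays per group are too few to exclude it. With the replicate number as a block the count was 1, Cyp2c54 (adjusted p of Cyp2c23 = 0.0803, limma), and 22 of all probe sets tested passed. The family median of -1.01, which includes the untested Cyp2c65, was -0.11 with log2(signal + 32). There it was the value of Cyp2c65 itself, while Cyp2c50, the middle value in the main fit, had -0.99. The median ranged from -1.18 to -0.59 with an array left out. Cyp2c29 turned to -0.26 on the deposited scaling and -0.21 after quantile normalization. Cyp2c70, at 0.00, had -0.45 on the deposited scaling, -0.28 after quantile normalization, -0.01 with arrays centred on their median, 0.92 with the 3' over 5' ratio as a covariate, and -0.35 to 0.33 with an array left out. The other 8 tested members kept their sign in all 15 alternatives. The cause of these shifts was not tested. The 90th percentile in place of the 95th as background left 10 members above it in both groups.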
